A study of Homo sapiens with 8 samples.

Results

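Transcript levels of 39 genes of the ATF4 program and the unfolded protein response were followed after depletion of GPX1 in the human triple-negative breast cancer lines MDA-MB-231 and Hs578T. The 39 genes were taken by symbol from the 23686 genes listed in each library's table, and all 39 were found and tested. By role, 11 formed the ATF4 arm, 4 were the stress sensors and the transcription factor XBP1, 17 belonged to protein folding in the endoplasmic reticulum (ER), and 7 to ER degradation, translocation and membrane proteins. The question was whether the ATF4 arm and the ER chaperone arm moved together after the depletion.

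When unfolded proteins build up in the ER, the membrane sensors PERK (gene EIF2AK3), IRE1 (ERN1) and ATF6 start the unfolded protein response. PERK phosphorylates the translation factor eIF2, which slows most protein synthesis and favours translation of ATF4, a transcription factor of genes for amino acid supply, redox balance and, under lasting stress, cell death. ATF6 and the spliced form of XBP1, made by IRE1, raise ER chaperones and the machinery that removes misfolded proteins. ATF4 can also be raised by other eIF2 kinases without ER stress, so the arms are separable. Phosphorylation, ATF4 protein and XBP1 splicing were not measured here, since the tables hold 1 value per gene.

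The 4 groups were MDA-MB-231 siGPX1, MDA-MB-231 control, Hs578T siGPX1 and Hs578T control, with 2 libraries each. Both are established lines of triple-negative breast cancer, the class that lacks the estrogen and progesterone receptors and ERBB2 amplification. Titles of the siGPX1 libraries name an siRNA, whereas the genotype tag of the same samples reads Gpx1-/-. Which control was used, and how many siRNAs, was not given in the sources used here. GPX1 encodes a glutathione peroxidase that reduces hydrogen peroxide. No label tells whether replicates came from different cultures, so p-values measure the spread between these libraries alone, and it may be technical.

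The libraries held 12905808 to 14216365 estimated counts and detected 15584 to 15817 genes. GPX1 was lower in every siGPX1 library, with 108 and 95 counts in MDA-MB-231 siGPX1 against 2944 and 3223 in MDA-MB-231 control, and 42 and 42 counts in Hs578T siGPX1 against 1117 and 1074 in Hs578T control. The 2 libraries of Hs578T siGPX1 differed more from each other (mean chi-square per gene of 4.05) than those of the other groups (1.36 to 1.97). ESR1 stayed at or below 0.09 TPM (transcript abundance scaled for length and library size) in all 8 libraries, and the T cell gene CD3E was at 0. The lines are labelled epithelial. Of 7 epithelial markers 2, KRT8 and KRT18, exceeded 1 TPM in all libraries of each Hs578T group, against 6 in each MDA-MB-231 group. EPCAM and CDH1 did not exceed 0.22 TPM in Hs578T, and CDH1 was also low in MDA-MB-231 (0.36 to 1.11 TPM). In Hs578T the 7 fibroblast markers summed to 5842 to 6942 TPM in siGPX1 and 5184 to 5186 TPM in control. The 7 epithelial markers also moved with depletion. They summed to 2886 to 2955 TPM in MDA-MB-231 siGPX1 against 1924 to 1935 in control, though CLDN4 fell there. In Hs578T they summed to 934 to 1033 TPM in siGPX1 against 348 to 351 in control, mostly KRT18. The 7 mesenchymal markers rose in sum too, although AXL and ZEB1 fell in both lines. Their sum was 4282 to 4312 TPM in MDA-MB-231 siGPX1 against 3766 to 3791 in control. In Hs578T it was 24277 to 26707 TPM in siGPX1 against 20570 to 20826 in control. The part of these marker changes in the results below was not tested. In whole-culture RNA, a shift in the kinds of cells and a change in RNA per cell cannot be told apart.

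The promoters of several members carry the sequence elements through which these arms are known to be driven. The letters are shown because they are a feature of the members that does not rest on their levels. RefSeq promoters of 300 bases (250 before and 50 after the gene's start, build GRCh38.p14) were available for 37 members, and NUPR1 and PDIA3 were not matched. The ER stress element, CCAAT and CCACG set 9 bases apart on either strand, is bound by NF-Y together with ATF6. It stood in 6 of the 37 promoters, against 22 of all 27305 promoters (0.0806%). Among the 10230 promoters matched to tested genes 13 held it (0.127%). The members are known genes of these arms, so their higher share is a description and tests nothing. The 6 were XBP1, HSPA5, HSP90B1 with 2 copies, CALR, CANX and CRELD2, so 5 of the 16 ER folding promoters and 0 of the 10 ATF4 arm promoters held it. Each window is printed 5′ to 3′ on the strand given, with the element in capitals.
XBP1, chr22:28800598-28800626, minus strand: gctggCCAATCGCGGAGGGCCACGaccgt
HSPA5, chr9:125241386-125241414, minus strand: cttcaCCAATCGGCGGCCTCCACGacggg
HSP90B1, first copy, chr12:103930211-103930239, plus strand: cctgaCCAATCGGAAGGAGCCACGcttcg
HSP90B1, second copy, chr12:103930316-103930344, minus strand: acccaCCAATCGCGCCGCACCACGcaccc
CALR, chr19:12938379-12938407, minus strand: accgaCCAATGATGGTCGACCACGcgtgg
CANX, chr5:179698773-179698801, plus strand: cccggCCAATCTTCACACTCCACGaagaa
CRELD2, chr22:49918549-49918577, minus strand: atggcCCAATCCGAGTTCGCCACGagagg

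The promoter of HSPA5, which encodes the master ER chaperone BiP, is the textbook example and is shown whole (chr9:125241294-125241593, minus strand, 300 bases), with the element in capitals.
HSPA5 promoter: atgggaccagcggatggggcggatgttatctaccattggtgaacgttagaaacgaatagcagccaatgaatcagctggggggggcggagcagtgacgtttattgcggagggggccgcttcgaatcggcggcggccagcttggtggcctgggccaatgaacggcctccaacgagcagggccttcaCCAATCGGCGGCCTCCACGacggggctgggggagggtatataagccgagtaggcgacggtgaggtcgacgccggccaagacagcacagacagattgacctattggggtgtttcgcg

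ATF4 binds as a partner of C/EBP proteins to sites of the kind TGATGNAA. This stretch was present in 2 of the 10 ATF4 arm promoters, ASNS and CHAC1, and in the HERPUD1 promoter. It stood in 3.67% of all promoters and 1.70% of those of tested genes. The UPR element TGACGTGG stood in 1 member's promoter, that of HYOU1, in 0.795% of all promoters and in 1.01% of those of tested genes. The TGATGNAA stretch and the UPR element were searched on both strands, and no match overlaps another element printed here.
ASNS, chr7:97872464-97872481, minus strand: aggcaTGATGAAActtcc
CHAC1, chr15:40953257-40953274, minus strand: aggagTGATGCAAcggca
HERPUD1, chr16:56931961-56931978, minus strand: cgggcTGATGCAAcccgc
HYOU1, chr11:119057381-119057398, minus strand: ccccgTGACGTGGtccaa
A match describes these letters only. The promoters of the other matched members held none of these elements in this window.

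Across the 39 genes, falls outnumbered rises after GPX1 depletion in both lines, more so in Hs578T, and most changes were small. In MDA-MB-231 9 rose and 12 fell (23.1% and 30.8% of the members), where 20.7% of all 14249 tested genes rose and 21.9% fell by the quasi-likelihood test of edgeR with Benjamini-Hochberg adjustment at 0.05. In Hs578T 10 rose and 18 fell (25.6% and 46.2%), against 28.6% and 22.1% of all genes. The share that rose was close to the background in both lines, and the share that fell was above it. The median log2 change of the 39 was -0.03 in MDA-MB-231 and -0.12 in Hs578T, beside 0.00 in MDA-MB-231 and 0.04 in Hs578T over all tested genes.

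Few of these changes were large. In MDA-MB-231 1 member rose past 1.5-fold (WFS1) and 3 fell (ATF5, TRIB3 and ERO1L), where 4.01% and 7.7% of all genes did so. In Hs578T 0 members rose past 1.5-fold and 2 fell (HYOU1 and CTH), where 8.3% and 9.13% of all genes did so. In both lines at once 7 members rose and 12 fell, against 14.9% and 14.3% of all genes, and 0 members changed in opposite directions, against 1.54% of all genes. The 10 rises in Hs578T became 6 when any 1 of the 4 MDA-MB-231 libraries was left out of the fit. A stricter filter on low counts gave 13 rises and 11 falls in MDA-MB-231, and 6 rises and 19 falls in Hs578T.

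**Figure D1:**
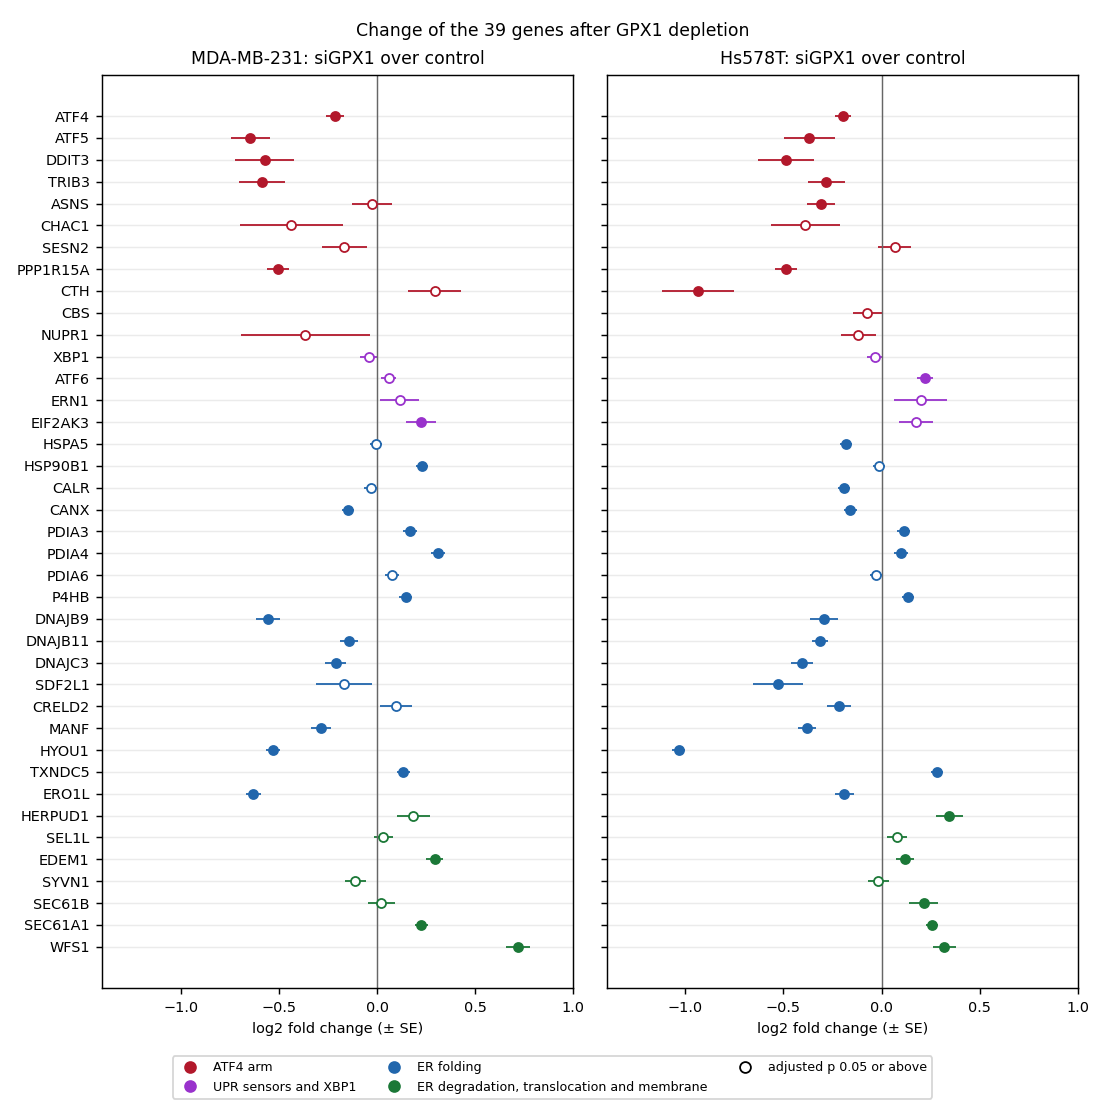
Log2 fold change after GPX1 depletion (siGPX1 over control, horizontal axis) of the 39 genes (rows, coloured by role) in MDA-MB-231 (left) and Hs578T (right), with standard errors as bars, filled points past an adjusted p of 0.05 by edgeR and open points not. The ATF4 arm points that passed lie left of 0 in both panels, and those of the degradation, translocation and membrane group lie right of it. CBS is not drawn in MDA-MB-231, where 1 count was found in the 4 libraries.

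In the ATF4 arm 0 of 11 genes rose and 5 fell in MDA-MB-231 (0% and 45.5%, against 20.7% and 21.9% of all genes). In Hs578T 0 rose and 7 fell (0% and 63.6%, against 28.6% and 22.1%). The same 5 were lower in both lines, as were 14.3% of all genes. The 5 were ATF4 itself, ATF5, DDIT3, TRIB3 and PPP1R15A, and Hs578T added ASNS and CTH. The median log2 change of the arm was -0.37 in MDA-MB-231, or -0.40 there without CBS, whose fitted value rests on 1 count, and -0.31 in Hs578T. Without MDA-MB-231 siGPX1 replicate 1 the median in that line was -0.12.

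ATF4, the transcription factor at the head of the arm, had 123 and 121 CPM (counts scaled to library size) in MDA-MB-231 siGPX1 against 140.3 and 143 CPM in MDA-MB-231 control. In Hs578T it had 264 and 244 CPM in siGPX1 against 288 and 293 CPM in control. The groups did not overlap in either line. The log2 change was -0.21 ± 0.04 in MDA-MB-231 (SE; adjusted p = 0.000961) and -0.19 ± 0.04 in Hs578T (adjusted p = 0.00077, edgeR with Benjamini-Hochberg adjustment). Without MDA-MB-231 control replicate 2 or siGPX1 replicate 2 the MDA-MB-231 change was -0.15 in each case and did not pass.

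PPP1R15A encodes GADD34, the phosphatase subunit that removes phosphate from eIF2 and ends the response. It had 61.8 and 56.5 CPM in MDA-MB-231 siGPX1 against 82.8 and 85.4 CPM in control, and 69.8 and 66.2 CPM in Hs578T siGPX1 against 93.6 and 96.9 CPM in control. Both siGPX1 libraries of each line lay well below both controls. The log2 change was -0.51 ± 0.06 in MDA-MB-231 (adjusted p = 3.15e-06) and -0.49 ± 0.06 in Hs578T (adjusted p = 3.52e-06 by the same edgeR test), and this call held in all 16 alternative fits of each line, the test against a 1.5-fold change not counted.

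DDIT3 encodes CHOP, a transcription factor linked to death under lasting ER stress. It was scarce, with 8.22 and 7.07 CPM in MDA-MB-231 siGPX1 against 13.0 and 9.85 CPM in control, and 12.4 and 10.4 CPM in Hs578T siGPX1 against 14.9 and 17.1 CPM in control. The siGPX1 libraries were the lower pair in both lines, with a wide spread between the MDA-MB-231 controls. Its log2 change was -0.57 ± 0.15 in MDA-MB-231 (adjusted p = 0.00595) and -0.49 ± 0.14 in Hs578T (adjusted p = 0.00877, edgeR). DDIT3 did not pass in MDA-MB-231 without control replicate 1 (-0.31) or siGPX1 replicate 2 (-0.42), nor in Hs578T without control replicate 2 (-0.40) or siGPX1 replicate 2 (-0.37).

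TRIB3, a pseudokinase induced by ATF4 and CHOP, had 9.03 and 9.85 CPM in MDA-MB-231 siGPX1 against 14.2 and 14.1 CPM in control, and 20.7 and 25.1 CPM in Hs578T siGPX1 against 26.6 and 29.2 CPM in control. The groups were apart in both lines, narrowly in Hs578T. The log2 change was -0.59 ± 0.12 in MDA-MB-231 (adjusted p = 0.00071) and -0.28 ± 0.09 in Hs578T (adjusted p = 0.0202, edgeR).

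ATF5, a factor whose translation also depends on eIF2, had 25.5 and 20.6 CPM in MDA-MB-231 siGPX1 against 33.5 and 38.8 CPM in control, and 14.5 and 12.5 CPM in Hs578T siGPX1 against 16.6 and 18.2 CPM in control, again without overlap. Its log2 change was -0.65 ± 0.10 in MDA-MB-231 (adjusted p = 7.1e-05) and -0.37 ± 0.13 in Hs578T (adjusted p = 0.0281, edgeR). In Hs578T the call of TRIB3 was lost without control replicate 2 (-0.23) or siGPX1 replicate 1 (-0.16), and that of ATF5 without control replicate 2 (-0.31) or siGPX1 replicate 2 (-0.27). Both were also lost there with DESeq2, and TRIB3 was -0.43 without siGPX1 replicate 2.

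Of the metabolic targets CTH alone differed between the lines by a test of the difference. ASNS, the asparagine synthetase, had 19.5 and 17.1 CPM in MDA-MB-231 siGPX1 against 19.8 and 17.6 CPM in control, where the groups overlapped (log2 change -0.03 ± 0.10, adjusted p = 0.869 by edgeR). In Hs578T it had 66.3 and 58.4 CPM in siGPX1 against 75.1 and 79.3 CPM in control, with both depleted libraries lower (-0.31 ± 0.07, adjusted p = 0.00226). The difference between the lines was 0.28 ± 0.12 and did not pass (adjusted p = 0.142).

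CTH, the cystathionine gamma-lyase that releases cysteine for glutathione synthesis, gave the clearest split of the arm. It had 10.3 and 10.3 CPM in MDA-MB-231 siGPX1 against 8.30 and 8.49 CPM in control, and 3.66 and 3.09 CPM in Hs578T siGPX1 against 5.64 and 7.29 CPM in control. Depleted libraries were the higher pair in MDA-MB-231 and the lower pair in Hs578T. The log2 change was 0.29 ± 0.14 in MDA-MB-231 (adjusted p = 0.0943) and -0.94 ± 0.18 in Hs578T (1.91-fold lower, adjusted p = 0.000493), and the difference of 1.23 ± 0.23 passed (adjusted p = 0.00164, all by edgeR with Benjamini-Hochberg adjustment).

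CBS, the enzyme before CTH in the same transsulfuration route, was close to missing from MDA-MB-231, with 1 count in all in the 4 libraries. In Hs578T it had 98.0 and 82.3 CPM in siGPX1 against 92.5 and 96.9 CPM in control, an overlap. The other 3 members did not pass in either line. CHAC1, which breaks down glutathione, had log2 changes of -0.44 ± 0.26 in MDA-MB-231 and -0.39 ± 0.18 in Hs578T, and passed in Hs578T in 6 of the alternative fits. SESN2, a stress-induced regulator of mTORC1, had -0.17 ± 0.11 in MDA-MB-231 and 0.07 ± 0.09 in Hs578T. NUPR1, a stress-inducible chromatin protein, had -0.37 ± 0.33 in MDA-MB-231, where its libraries held 0.81 to 1.23 CPM, and -0.12 ± 0.09 in Hs578T.

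**Figure D2:**
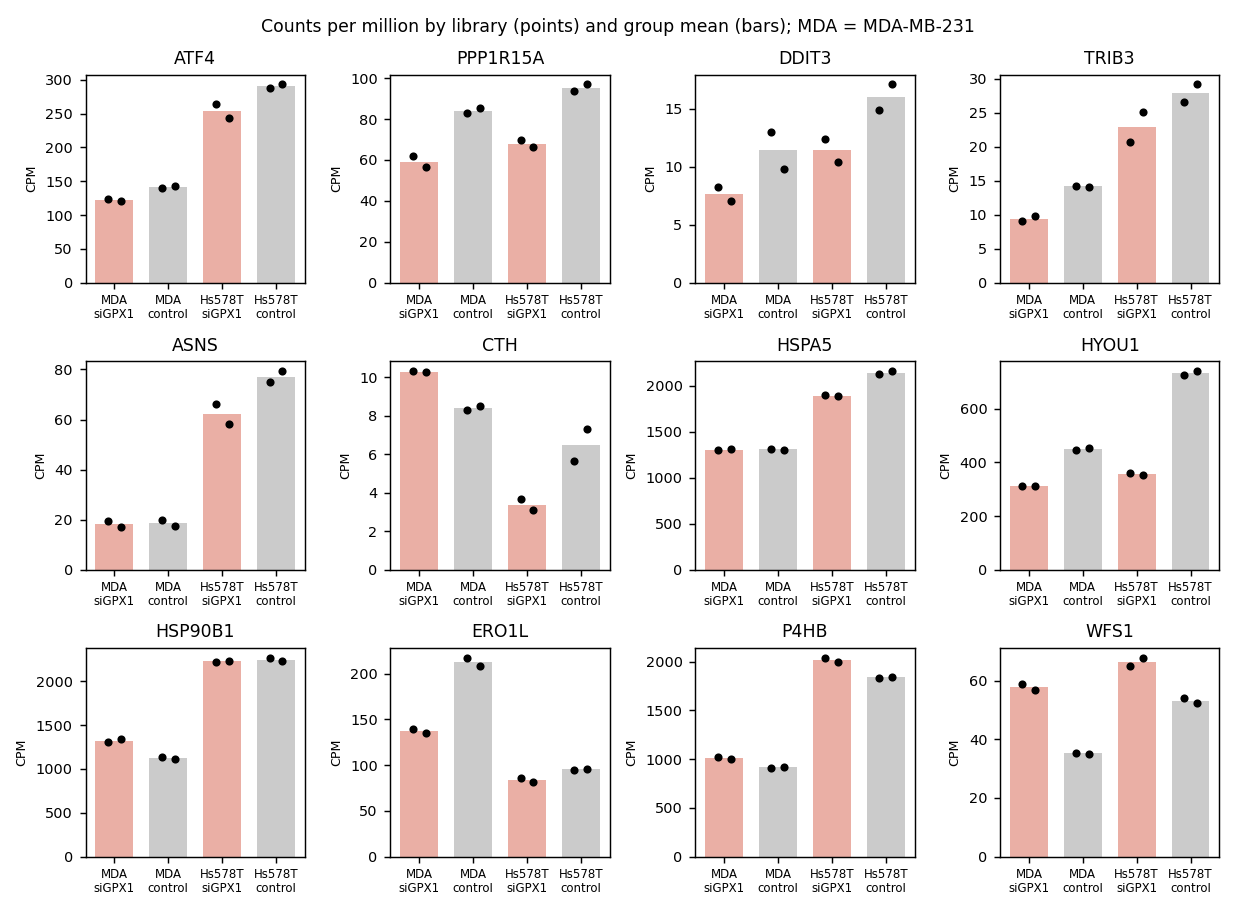
CPM (vertical axis, from 0) in each library (points) and the group mean (bars, siGPX1 in red and control in grey, n = 2 each) of 12 members in MDA-MB-231 and Hs578T. ATF4, PPP1R15A, DDIT3, TRIB3 and HYOU1 are lower in the siGPX1 libraries of both lines, CTH is lower in Hs578T siGPX1 (3.66 and 3.09 CPM, against 5.64 and 7.29 CPM in Hs578T control), and WFS1 is higher in siGPX1 libraries of both lines.

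The sensors and XBP1 changed little. Of these 4 genes 1 rose and 0 fell in each line (25% and 0%). Of all genes 20.7% rose and 21.9% fell in MDA-MB-231, and 28.6% rose and 22.1% fell in Hs578T. The share that rose was near that of all genes. ATF6, the membrane-bound factor that is cut free under stress, had 131 and 135 CPM in MDA-MB-231 siGPX1 against 126 and 129 CPM in control (log2 change 0.06 ± 0.04, adjusted p = 0.245 by edgeR). In Hs578T it rose, with 140.4 and 144 CPM in siGPX1 against 121 and 123 CPM in control (0.22 ± 0.04, adjusted p = 0.000247), and the difference between the lines did not pass (-0.16 ± 0.06, adjusted p = 0.0589). EIF2AK3, which encodes PERK, rose in MDA-MB-231, with 35.1 and 32.5 CPM in siGPX1 against 29.4 and 28.5 CPM in control (0.22 ± 0.08, adjusted p = 0.0265), and had 0.17 ± 0.09 in Hs578T (adjusted p = 0.105). The EIF2AK3 call was lost without MDA-MB-231 control replicate 2 (0.25) or siGPX1 replicate 1 (0.22), with DESeq2 and with limma on log2(TPM + 1).

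ERN1, the kinase and nuclease IRE1, had log2 changes of 0.11 ± 0.10 in MDA-MB-231 and 0.20 ± 0.13 in Hs578T and did not pass. XBP1, its RNA substrate, had 66.5 and 66.4 CPM in MDA-MB-231 siGPX1 against 68.6 and 68.2 CPM in control (-0.04 ± 0.05, adjusted p = 0.509 by edgeR). In Hs578T XBP1 had 161 and 155 CPM in siGPX1 against 159.9 and 165 CPM in control, an overlap (-0.03 ± 0.04, adjusted p = 0.505).

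Of the 17 ER folding genes 5 rose and 7 fell in MDA-MB-231 (29.4% and 41.2%, against 20.7% and 21.9% of all genes) and 4 rose and 11 fell in Hs578T (23.5% and 64.7%, against 28.6% and 22.1%). The shares that rose were near those of all genes and the shares that fell were above them. In both lines at once 4 members rose and 7 fell, where 14.9% and 14.3% of all genes did so. The median log2 change was -0.03 in MDA-MB-231 and -0.19 in Hs578T. The members were split further by role after their values had been seen, so the split carries no test. BiP with its DnaJ cochaperones, SDF2L1 and HYOU1 fell in 4 of 6 cases in MDA-MB-231 and 6 of 6 in Hs578T, with medians of -0.19 in MDA-MB-231 and -0.36 in Hs578T. The 5 protein disulfide isomerases counted here were P4HB, PDIA3, PDIA4, PDIA6 and TXNDC5. In each line 4 rose, the same 4, with medians of 0.14 in MDA-MB-231 and 0.11 in Hs578T. Related ER genes outside the 17, named after their values were seen, did not share one direction. ERP44 (-0.457 in MDA-MB-231, -0.525 in Hs578T), TXNDC11 (-0.803 and -1.079) and DNAJC10 (-0.9985 and -1.073, in the same order) fell, as did TXNDC12. PDIA5 rose in Hs578T alone (0.335), and ERP29 passed in neither line. Of the 6 other ER folding genes, 3 fell and 1 rose in MDA-MB-231, and 5 fell in Hs578T, among them CRELD2.

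HYOU1 had the greatest fall of the 39 genes in Hs578T. It encodes the ER chaperone GRP170, a nucleotide exchange factor of BiP. HYOU1 had 313 and 310.3 CPM in MDA-MB-231 siGPX1 against 446 and 454 CPM in control, and 361.5 and 353.5 CPM in Hs578T siGPX1 against 724.5 and 739.5 CPM in control. The siGPX1 libraries of the lines ended near each other, and the Hs578T controls lay far above all other libraries. The fall was 1.44-fold in MDA-MB-231 (log2 change -0.53 ± 0.03, adjusted p = 4.8e-09) and 2.05-fold in Hs578T (-1.03 ± 0.03, adjusted p = 1.5e-12, edgeR with Benjamini-Hochberg adjustment). Of all tested genes, 11.7% had a log2 change as low or lower in MDA-MB-231 and 4.72% in Hs578T. The difference between the lines was 0.50 ± 0.05 (adjusted p = 4.24e-06, edgeR). All 3 calls held in every alternative fit except the test against a 1.5-fold change. There the fall in Hs578T alone passed, and neither the fall in MDA-MB-231 nor the difference did.

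HSPA5 itself moved far less. BiP's transcript had 1303 and 1309 CPM in MDA-MB-231 siGPX1 against 1313 and 1306 CPM in control, where the groups overlapped (-0.0033 ± 0.0307 on the log2 scale, adjusted p = 0.965 by edgeR). In Hs578T HSPA5 had 1899 and 1884 CPM in siGPX1 against 2127 and 2157 CPM in control, both lower (-0.18 ± 0.03, adjusted p = 0.00014). The difference of 0.18 ± 0.04 passed (adjusted p = 0.011).

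The J-domain cochaperones hand substrates to BiP and stimulate its ATPase. DNAJB9 had 24.8 and 25.0 CPM in MDA-MB-231 siGPX1 against 36.8 and 36.5 CPM in control, and 21.5 and 21.7 CPM in Hs578T siGPX1 against 26.2 and 26.7 CPM in control, lower in both lines. Its log2 change was -0.56 ± 0.06 in MDA-MB-231 (adjusted p = 3.01e-06) and -0.29 ± 0.07 in Hs578T (adjusted p = 0.00284, edgeR). On the log2 scale DNAJB11 fell by 0.14 ± 0.05 in MDA-MB-231 and 0.31 ± 0.04 in Hs578T, and DNAJC3 by 0.21 ± 0.05 in MDA-MB-231 and 0.41 ± 0.06 in Hs578T. In MDA-MB-231 both of these calls were fragile. That of DNAJB11 was lost without any single MDA-MB-231 library (-0.12 to -0.07), and that of DNAJC3 without control replicate 1 (-0.19), control replicate 2 (-0.13) or siGPX1 replicate 1 (-0.10). Both were lost with DESeq2, and DNAJB11 also with its size factors in edgeR and with the stricter filter. SDF2L1, which keeps BiP substrates soluble with these cochaperones, had -0.17 ± 0.14 in MDA-MB-231 (adjusted p = 0.382). In Hs578T SDF2L1 had 14.6 and 18.3 CPM in siGPX1 against 22.3 and 25.4 CPM in control, a fall of 0.53 ± 0.13 on the log2 scale (adjusted p = 0.00268, edgeR).

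The lectin chaperones CALR and CANX hold newly made glycoproteins. CALR had 1406 and 1422 CPM in MDA-MB-231 siGPX1 against 1442 and 1452 CPM in control and did not pass (-0.03 ± 0.03, adjusted p = 0.425 by edgeR). In Hs578T CALR had 2571 and 2627 CPM in siGPX1 against 2975 and 2964 CPM in control, lower in both libraries (-0.19 ± 0.03, adjusted p = 7.8e-05). On the log2 scale CANX fell by 0.15 ± 0.03 in MDA-MB-231 (adjusted p = 0.0016) and 0.16 ± 0.03 in Hs578T (adjusted p = 0.000691), and the MDA-MB-231 call was lost without any single MDA-MB-231 library (-0.11 to -0.09).

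HSP90B1, the ER form of HSP90 (GRP94), took another course. It had 1302 and 1336 CPM in MDA-MB-231 siGPX1 against 1140 and 1112 CPM in control, higher in both, and 2220 and 2229 CPM in Hs578T siGPX1 against 2262 and 2226 CPM in control, an overlap. The rise in MDA-MB-231 was 0.23 ± 0.03 (adjusted p = 3.13e-05, edgeR), and the difference between the lines was 0.24 ± 0.05 (adjusted p = 0.00181). MANF, a secreted BiP-binding factor, fell in both, with -0.28 ± 0.05 in MDA-MB-231 (adjusted p = 0.00029) and -0.38 ± 0.05 in Hs578T (adjusted p = 4.69e-06). Without MDA-MB-231 siGPX1 replicate 1 the MANF change in that line was -0.18 (adjusted p = 0.0479 by edgeR), and its adjusted p was lower than that in the 15 other fits. CRELD2, an ER protein with disulfide isomerase activity, had 0.10 ± 0.08 in MDA-MB-231 and fell in Hs578T (-0.22 ± 0.06, adjusted p = 0.00701, lost with DESeq2 and without Hs578T control replicate 2 at -0.20).

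Disulfide bonds are formed by protein disulfide isomerases, which the oxidase ERO1 (ERO1L in these tables, now ERO1A) reoxidises with release of hydrogen peroxide. P4HB, the founding isomerase, had 1021 and 1003 CPM in MDA-MB-231 siGPX1 against 910.5 and 920.1 CPM in control, and 2035 and 1997 CPM in Hs578T siGPX1 against 1831 and 1843 CPM in control. All 4 depleted libraries were above their controls. P4HB rose by 0.14 ± 0.03 on the log2 scale in MDA-MB-231 (adjusted p = 0.00153) and 0.13 ± 0.03 in Hs578T (adjusted p = 0.00189, edgeR). TXNDC5 rose by 0.13 ± 0.03 in MDA-MB-231 and 0.28 ± 0.03 in Hs578T, PDIA4 by 0.31 ± 0.04 in MDA-MB-231 and 0.10 ± 0.03 in Hs578T, and PDIA3 by 0.17 ± 0.04 in MDA-MB-231 and 0.11 ± 0.03 in Hs578T. PDIA6 did not pass, with 0.08 ± 0.03 in MDA-MB-231 (adjusted p = 0.0881) and -0.03 ± 0.03 in Hs578T (adjusted p = 0.519).

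The smaller isomerase rises in Hs578T depended on the fit. PDIA3 did not pass there in 9 of 16 alternative fits and PDIA4 in 12, among them each fit that left out 1 MDA-MB-231 library (0.07 for PDIA3 and 0.05 for PDIA4 in each), and also without Hs578T control replicate 1 (0.07 for each). PDIA4 was lost too without Hs578T control replicate 2 (0.11) or siGPX1 replicate 2 (0.07). P4HB in Hs578T was lost with each line fitted alone (0.08), and was 0.09 without any single MDA-MB-231 library, where it still passed. In MDA-MB-231 the calls of PDIA3, PDIA4, P4HB and TXNDC5 held in all 16, with TXNDC5 at 0.20 without MDA-MB-231 control replicate 2.

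ERO1L moved against the listed isomerases that rose. It had 139.8 and 135 CPM in MDA-MB-231 siGPX1 against 217 and 209 CPM in control, and 85.7 and 81.4 CPM in Hs578T siGPX1 against 94.6 and 95.9 CPM in control. Depleted libraries were lower in both lines, by 1.55-fold in MDA-MB-231 (-0.63 ± 0.04, adjusted p = 4.42e-09) and 1.14-fold in Hs578T (-0.19 ± 0.05, adjusted p = 0.00331, edgeR). The difference of -0.44 ± 0.06 passed (adjusted p = 0.000172).

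Of the 7 genes of ER degradation, translocation and the ER membrane, 3 rose and 0 fell in MDA-MB-231. In Hs578T 5 rose and 0 fell. The shares that rose were 42.9% in MDA-MB-231 and 71.4% in Hs578T, against 20.7% and 28.6% of all genes. Of all genes 21.9% fell in MDA-MB-231 and 22.1% in Hs578T. The medians of the 7 were 0.185 in MDA-MB-231 and 0.22 in Hs578T. SEC61A1, the pore subunit of the translocon, WFS1, the membrane protein mutated in Wolfram syndrome, and EDEM1, a lectin that directs misfolded glycoproteins to degradation, rose in both lines. SEC61A1 had 456 and 460.4 CPM in MDA-MB-231 siGPX1 against 389.6 and 395 CPM in control, and 994 and 989 CPM in Hs578T siGPX1 against 827 and 834 CPM in control, higher in every depleted library. Its log2 change was 0.22 ± 0.03 in MDA-MB-231 (adjusted p = 3.89e-05) and 0.26 ± 0.03 in Hs578T (adjusted p = 4.81e-06, edgeR).

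WFS1 had the greatest rise of the 39 in MDA-MB-231 among genes that passed. It had 59.0 and 56.7 CPM in MDA-MB-231 siGPX1 against 35.5 and 34.9 CPM in control, and 65.0 and 67.6 CPM in Hs578T siGPX1 against 54.0 and 52.3 CPM in control. The siGPX1 libraries were higher in both lines, by 1.65-fold in MDA-MB-231 (0.72 ± 0.06, adjusted p = 1.35e-07) and 1.25-fold in Hs578T (0.32 ± 0.06, adjusted p = 0.000314), and the difference of 0.40 ± 0.09 passed (adjusted p = 0.00448, all by edgeR).

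HERPUD1, an ER membrane protein of the degradation complex and a target of both arms, had a log2 change of 0.185 ± 0.0839 in MDA-MB-231 (adjusted p = 0.0911 by edgeR). In Hs578T it had 122 and 104 CPM in siGPX1 against 87.1 and 91.2 CPM in control, a rise of 0.34 ± 0.07 (adjusted p = 0.000543), or 0.22 without Hs578T siGPX1 replicate 1, where it still passed. EDEM1 rose by 0.29 ± 0.04 in MDA-MB-231 (adjusted p = 3.39e-05) and by 0.12 ± 0.05 in Hs578T (adjusted p = 0.0441), where the call was lost in 13 of 16 alternative fits, including those without Hs578T control replicate 2 (0.07), siGPX1 replicate 2 (0.09) or any single MDA-MB-231 library (0.07 in each). SEC61B, a small translocon subunit, rose by 0.22 ± 0.07 in Hs578T (adjusted p = 0.0232), lost in 10 of 16 fits, including those without Hs578T control replicate 1 (0.11), siGPX1 replicate 2 (0.17) or any single MDA-MB-231 library (0.17 in each). SEL1L and SYVN1, the adaptor and the ubiquitin ligase of the main degradation complex, did not pass in either line. SEL1L had 0.03 ± 0.05 in MDA-MB-231 and 0.08 ± 0.05 in Hs578T, and SYVN1 -0.11 ± 0.05 in MDA-MB-231 and -0.02 ± 0.05 in Hs578T.

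Set side by side, the arms differed in how uniform they were. Summed over its 11 genes, the ATF4 arm came to 419 and 402 TPM in MDA-MB-231 siGPX1 against 512 and 508 TPM in control, and to 865 and 774 TPM in Hs578T siGPX1 against 982 and 1017 TPM in control. The 17 ER folding genes came to 8587 and 8649 TPM in MDA-MB-231 siGPX1 against 8539 and 8448 TPM in control, and to 12579 and 12474 TPM in Hs578T siGPX1 against 13856 and 13811 TPM in control. Depleted libraries were thus lower in both lines for the ATF4 sum, but lower in Hs578T alone for the folding sum, and the difference between these sums was not tested. The 7 degradation, translocation and membrane genes came to 892 and 908 TPM in MDA-MB-231 siGPX1 against 815 and 811 TPM in control, and to 1213 and 1182 TPM in Hs578T siGPX1 against 1046 and 1068.5 TPM in control. Sums are led by the most abundant gene of each list, ATF4 in its arm and CALR among the folding genes.

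The change itself differed between the lines for 10 of the 39 genes. The log2 change was more positive in MDA-MB-231 for 8 and more negative for 2, against 6.32% and 10.7% of all tested genes by edgeR with Benjamini-Hochberg adjustment. The 8 were CTH, HYOU1, WFS1, CRELD2, HSP90B1, PDIA4, HSPA5 and CALR, of which 6 are ER folding genes, and the 2 were ERO1L and TXNDC5. PDIA4 had a difference of 0.21 ± 0.05 (adjusted p = 0.00762), CALR of 0.16 ± 0.04 (adjusted p = 0.0204), CRELD2 of 0.31 ± 0.10 (adjusted p = 0.0488) and TXNDC5 of -0.15 ± 0.05 (adjusted p = 0.0365).

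Differences of this size move with the scaling. With the stricter filter the median difference of all genes shifted by 0.104, 1684 genes were positive and 797 negative in place of 900 and 1528, and 15 members were positive and 1 negative. The TXNDC5 difference was lost in 12 of 15 fits, including without Hs578T control replicate 1 (-0.14), control replicate 2 (-0.13) or any single MDA-MB-231 library (-0.07 to -0.03), and the CRELD2 difference in 10, including without any single Hs578T library (0.30 to 0.35), without MDA-MB-231 control replicate 1 (0.37) or without MDA-MB-231 siGPX1 replicate 1 (0.38). Those of CTH, HYOU1, HSP90B1, HSPA5, PDIA4, ERO1L and WFS1 held in all 15, the test against a 1.5-fold change not counted. Leaving out any 1 MDA-MB-231 library gave larger differences for HSPA5 (0.27 to 0.28) and CALR (0.25 to 0.26), and PDIA4 had 0.32 without MDA-MB-231 siGPX1 replicate 2. Without Hs578T siGPX1 replicate 1 the negative differences numbered 4 in place of 2, and without Hs578T control replicate 1, Hs578T control replicate 2 or any single MDA-MB-231 library 1.

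**Figure D3:**
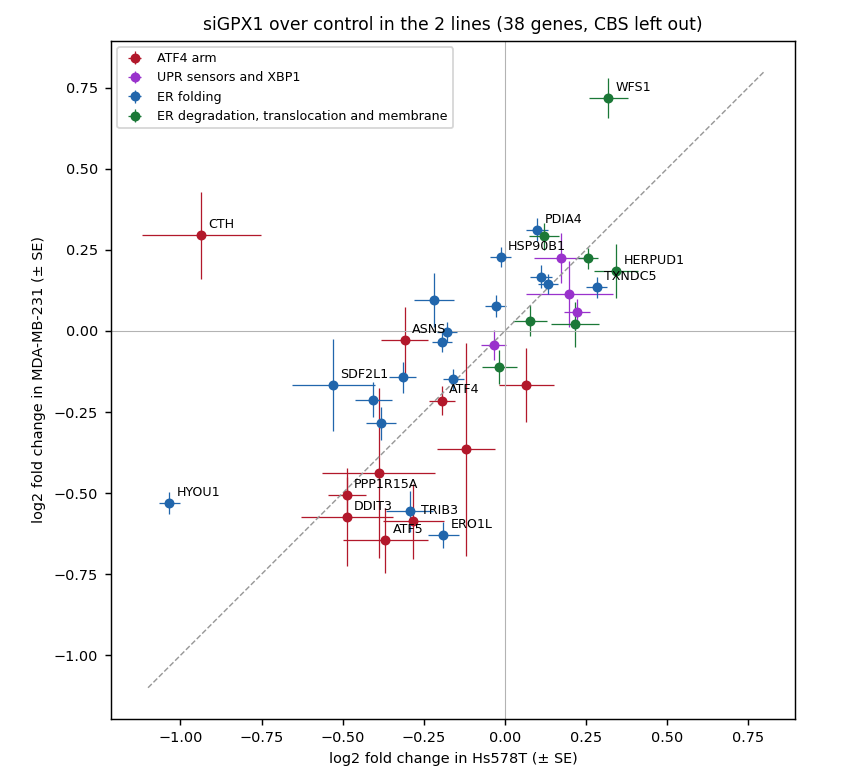
Log2 fold change after GPX1 depletion in MDA-MB-231 (vertical axis) against that in Hs578T (horizontal axis) for 38 members coloured by role, with standard errors as bars and the line of equal change dashed. HYOU1 (-0.53 in MDA-MB-231, -1.03 in Hs578T) and CTH (0.29 in MDA-MB-231, -0.94 in Hs578T) lie left of the others, ERO1L (-0.63 in MDA-MB-231, -0.19 in Hs578T) below the dashed line and WFS1 (0.72 in MDA-MB-231, 0.32 in Hs578T) at the top.

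Before any depletion the lines differed widely in these genes. In control cells 9 of the 39 were higher and 28 lower in MDA-MB-231 than in Hs578T, where 43% and 38.6% of all tested genes were higher and lower. Of the ER folding genes 15 of 17 were lower in MDA-MB-231 control, with a median log2 difference of -0.79, and of the ATF4 arm 9 of 11, with a median of -1.03, beside 0.05 over all tested genes. On the TPM scale that all-gene median moved by 0.133, so differences of that order depend on the scaling.

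Scaled for length, CALR was the most abundant member in every group, at 2047 ± 4.87 TPM in MDA-MB-231 control and 3819 ± 25.2 TPM in Hs578T control (SD, n = 2). HSP90B1 had 1053 ± 25.3 TPM in MDA-MB-231 control against 1910 ± 28.8 TPM in Hs578T control, and HSPA5 had 877.5 ± 9.46 TPM in MDA-MB-231 control against 1308 ± 8.22 TPM in Hs578T control. ATF4 followed the same order, at 269.8 ± 2.71 TPM in MDA-MB-231 control and 500.5 ± 4.75 TPM in Hs578T control. Every one of these differences was larger than the spread between the libraries (adjusted p at most 4.33e-12 for the 4 genes, edgeR).

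The ATF4 targets ranged further apart. ASNS had 24.5 ± 2.69 TPM in MDA-MB-231 control against 91.3 ± 3.87 TPM in Hs578T control, and NUPR1 3.925 ± 0.12 TPM in MDA-MB-231 control against 94.1 ± 3.06 TPM in Hs578T control. On the scaled counts of the edgeR fit ASNS was 4.13-fold and NUPR1 26.2-fold lower in MDA-MB-231 control. CBS had 0 counts in both MDA-MB-231 control libraries against 92.5 and 96.9 CPM in Hs578T control, at least 966-fold lower with a floor of 3 counts over the group. ATF5, ERN1, ERO1L, DNAJB9, EDEM1, SEL1L, SEC61B, EIF2AK3 and CTH were the 9 members higher in MDA-MB-231 control, among them ERO1L with 172 ± 5.93 TPM in MDA-MB-231 control against 69.9 ± 0.389 TPM in Hs578T control (2.23-fold higher on the scaled counts of the fit). The call of EIF2AK3 was lost in 10 of 15 fits, including without any single control library (0.15 to 0.24) or any single MDA-MB-231 siGPX1 library (0.17 in each). That of CTH was lost in 8, including without Hs578T control replicate 1 (0.20) or any single MDA-MB-231 library (0.32 to 0.35), and that of SEC61B in 4, including without Hs578T control replicate 1 (0.14) or MDA-MB-231 control replicate 2 (0.17). ATF6 and SYVN1 did not pass (0.07 ± 0.04 and -0.11 ± 0.05, adjusted p = 0.137 and 0.0619).

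**Figure D4:**
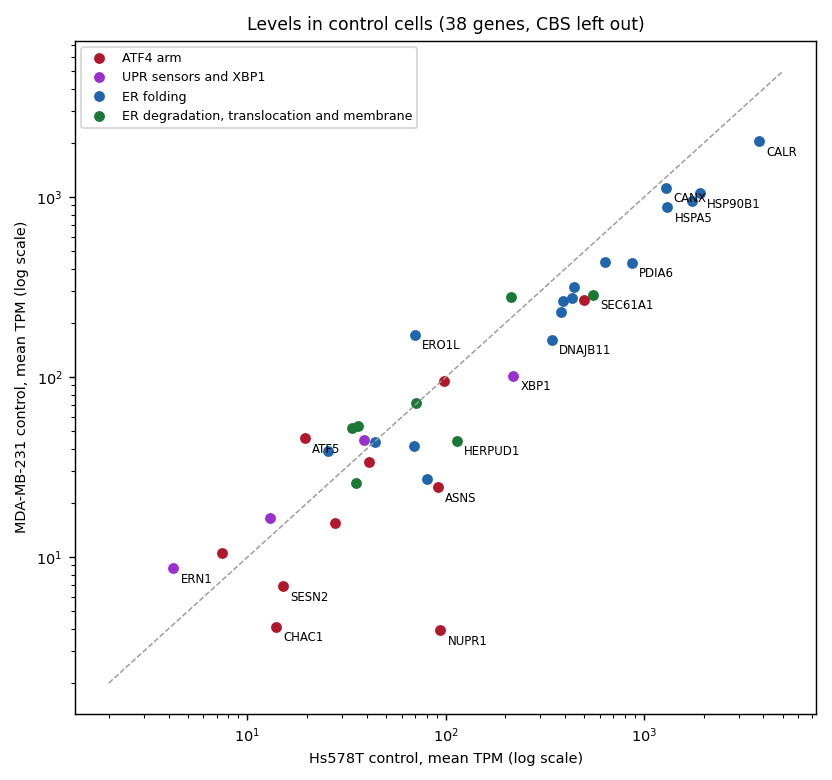
Mean TPM (log axes) of 38 members in MDA-MB-231 control (vertical) against Hs578T control (horizontal), n = 2 each, with the line of equal level dashed. Most points lie below the dashed line, with CALR at 2047 TPM in MDA-MB-231 control against 3819 TPM in Hs578T control, and NUPR1 farthest below it, while ATF5, ERN1 and ERO1L lie above. CBS is left out, since it had 0 counts in MDA-MB-231 control.

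Genes of the same pathways outside the 39 did not share one direction. Of 33 other ATF4 targets tested, 8 rose and 9 fell in MDA-MB-231 (24.2% and 27.3%, against 20.7% and 21.9% of all genes) and 13 rose and 8 fell in Hs578T (39.4% and 24.2%, against 28.6% and 22.1%). Apart from the rises in Hs578T these shares lay near those of all genes. The list had medians of 0.03 in MDA-MB-231 and 0.08 in Hs578T, and 0 of the 11 members of the ATF4 arm rose. On the log2 scale PYCR1, a proline synthesis enzyme, fell by 1.23 ± 0.09 in MDA-MB-231 and 1.58 ± 0.08 in Hs578T, the amino acid transporter SLC7A5 by 0.66 ± 0.04 in MDA-MB-231 and 0.82 ± 0.04 in Hs578T, and the seryl-tRNA synthetase SARS by 0.51 ± 0.05 in MDA-MB-231 and 0.52 ± 0.04 in Hs578T. The glutamine transporter SLC38A2 rose by 0.42 ± 0.04 in MDA-MB-231 and 0.76 ± 0.04 in Hs578T, and TXNIP, the thioredoxin inhibitor, by 0.60 ± 0.04 in MDA-MB-231 and 1.37 ± 0.14 in Hs578T. CEBPB, a dimer partner of ATF4, had -0.09 ± 0.08 in MDA-MB-231 and rose in Hs578T, with 119 and 141 CPM in siGPX1 against 55.6 and 55.5 CPM in control (log2 change 1.23 ± 0.07). Each of the changes given for these 6 genes as a rise or a fall had an adjusted p no higher than 1.7e-06 by edgeR.

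Of 40 other genes of ER quality control and known XBP1 or ATF6 targets, 2 rose and 17 fell in MDA-MB-231. These were 5% and 42.5%, against 20.7% and 21.9% of all genes. In Hs578T 6 rose and 13 fell (15% and 32.5%, against 28.6% and 22.1%). Of the 40, 5 fell further than HYOU1 in both lines, namely STT3A, DNAJC10, SSR1, SERP1 and TXNDC11, the last named after its values were seen. STT3A, the catalytic subunit of oligosaccharyltransferase, had 214 and 214 CPM in MDA-MB-231 siGPX1 against 402 and 394 CPM in control, and 173 and 175 CPM in Hs578T siGPX1 against 387 and 396 CPM in control. DNAJC10, a disulfide reductase that works with BiP, had 117 and 114 CPM in MDA-MB-231 siGPX1 against 235 and 227 CPM in control, and 149.7 and 148 CPM in Hs578T siGPX1 against 313 and 313 CPM in control. SSR1, a translocon-associated subunit, had log2 changes of -0.86 ± 0.04 in MDA-MB-231 and -1.20 ± 0.04 in Hs578T. SERP1, a translocon-stabilising protein, had -1.30 ± 0.05 in MDA-MB-231 and -1.24 ± 0.05 in Hs578T (adjusted p at most 8.22e-11 for these 4 genes, edgeR). TXNDC11, an ER protein with thioredoxin domains, had -0.80 ± 0.084 in MDA-MB-231 and -1.08 ± 0.085 in Hs578T.

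Of the 13 eIF2 kinases and eIF2 machinery genes 6 rose and 3 fell in each line (46.2% and 23.1%). Of all genes 20.7% rose and 21.9% fell in MDA-MB-231, and 28.6% rose and 22.1% fell in Hs578T. EIF2AK1, the heme-regulated eIF2 kinase, had 194 and 195 CPM in MDA-MB-231 siGPX1 against 130.1 and 129 CPM in control, and 157.5 and 171.5 CPM in Hs578T siGPX1 against 80.3 and 83.0 CPM in control, higher in both lines (0.59 ± 0.04 in MDA-MB-231 and 1.01 ± 0.05 in Hs578T). On the log2 scale EIF2S1, the alpha subunit of eIF2 that these kinases phosphorylate, fell by 0.71 ± 0.04 in MDA-MB-231 and 0.70 ± 0.05 in Hs578T. The gamma subunit EIF2S3 rose by 0.46 ± 0.04 in MDA-MB-231 and 0.58 ± 0.03 in Hs578T, and the beta subunit EIF2S2 by 0.17 ± 0.04 in MDA-MB-231 and 0.33 ± 0.04 in Hs578T (adjusted p at most 0.00175, edgeR). GCN1L1, the activator of the kinase GCN2, rose in MDA-MB-231 (0.20 ± 0.03) and did not pass in Hs578T (0.08 ± 0.04).

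Other stress programs gave mixed counts. Of all genes 20.7% rose and 21.9% fell in MDA-MB-231, and 28.6% rose and 22.1% fell in Hs578T. Several of the shares below lie near these. Of 12 tested genes of ATF6 processing and related membrane factors 3 rose and 1 fell in MDA-MB-231 (25% and 8.33%). In Hs578T 3 rose and 2 fell (25% and 16.7%). MBTPS2, the protease that releases ATF6, fell in both (-0.28 ± 0.05 in MDA-MB-231 and -0.43 ± 0.06 in Hs578T). NFYA, a subunit of the factor that binds the CCAAT part of the ER stress element, rose in both (0.23 ± 0.04 in MDA-MB-231 and 0.43 ± 0.05 in Hs578T). CREB3L1 (0.37 ± 0.05) and MAP3K5 (0.28 ± 0.09) rose in MDA-MB-231, while in Hs578T CREB3L4 rose (1.07 ± 0.20) and CREB3L2 fell (-0.20 ± 0.04). Of 16 cytosolic heat shock genes 5 rose and 3 fell in MDA-MB-231 (31.2% and 18.8%). In Hs578T 7 rose and 7 fell (43.8% each). DNAJB1 was lower in both (-0.60 ± 0.05 in MDA-MB-231 and -0.76 ± 0.05 in Hs578T), HSPB1 higher in both (0.28 ± 0.05 in MDA-MB-231 and 0.47 ± 0.04 in Hs578T) and HSPA8 lower in Hs578T (-0.42 ± 0.03). Of 10 genes of the mitochondrial response 3 rose and 3 fell in MDA-MB-231 (30% each). In Hs578T 5 rose and 2 fell (50% and 20%). HSPD1 was higher in both (0.33 ± 0.04 in MDA-MB-231 and 0.42 ± 0.04 in Hs578T). LONP1 was lower in both (-0.39 ± 0.04 in MDA-MB-231 and -0.17 ± 0.04 in Hs578T).

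**Figure D5:**
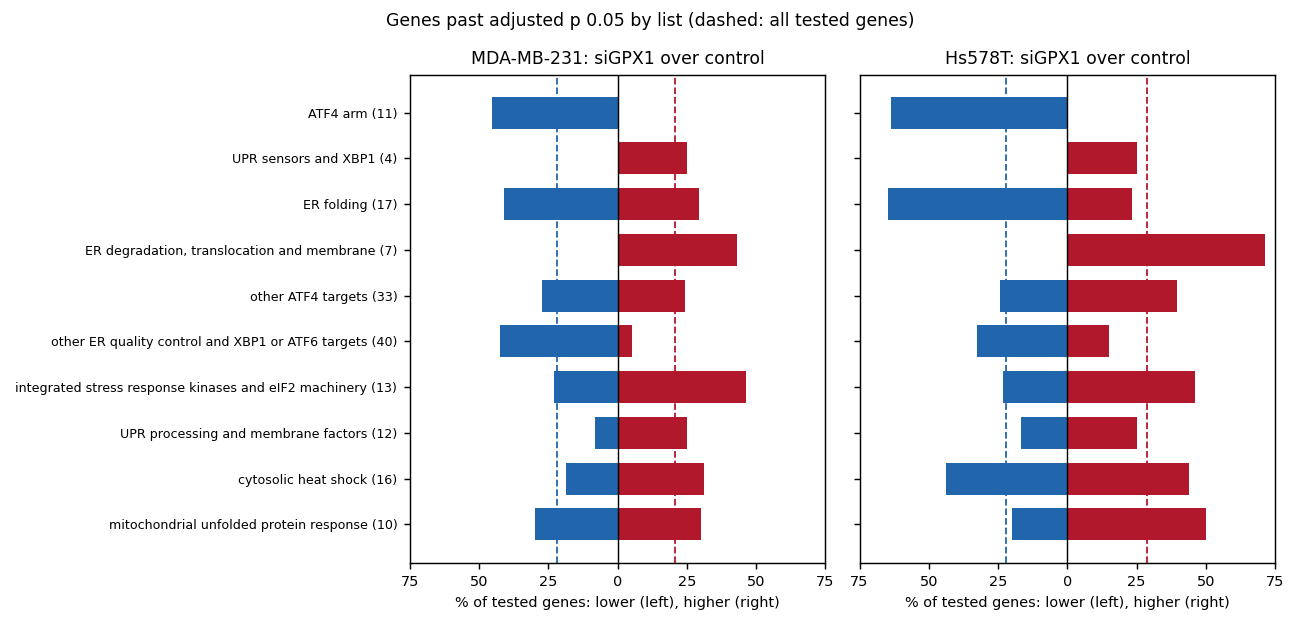
Percent of the tested genes of each list (rows, number tested in brackets) that were lower (blue, drawn to the left) or higher (red, drawn to the right) past an adjusted p of 0.05 after GPX1 depletion, in MDA-MB-231 (left) and Hs578T (right), with the share of all tested genes dashed. The ATF4 arm has a bar on the lower side alone (45.5% in MDA-MB-231, 63.6% in Hs578T), and the degradation, translocation and membrane genes on the higher side alone (42.9% in MDA-MB-231, 71.4% in Hs578T).

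The 3′ untranslated regions were also searched, because genes with the 7-base stretches GGGCATC or GGCATCA there were lower after the depletion in these libraries, and the joined 8 bases, GGGCATCA, occur in 5 of 6 annotated GPX1 transcripts. Of 13064 tested genes with such a region, 13.6% held at least 1 of the stretches. Their median log2 changes were -0.21 in MDA-MB-231 and -0.18 in Hs578T, against 0.01 in MDA-MB-231 and 0.07 in Hs578T for genes without. Since that pattern in these same libraries was the reason for the search, the medians restate it and are no independent support. Any link between the stretch in GPX1 and these changes was not tested. Among the members 5 of 39 (12.8%) held one, a share near that of all genes, and 0 of the 11 in the ATF4 arm. HYOU1, DNAJB9, MANF and CANX, which fell in both lines, held none. The sites of the 5 are shown with the matching bases in capitals, from GENCODE 29 transcripts, with the position of the first matching base in the untranslated region.
ERN1, chromosome 17, position 2472 of 4846: aaacaccttGGGCATCAtctggtgta
PDIA3, chromosome 15, position 777 of 2061: caagggtgtGGCATCAcgcagtttc
PDIA4, chromosome 7, position 497 of 732: tttcaggctGGGCATCgccaggcgg
ERO1L, chromosome 14, position 969 of 3654: tcagttataGGCATCAtgcccctta
EDEM1, chromosome 3, position 276 of 4039: caatagatgGGGCATCtttggattg
Of these 5, ERO1L fell in both lines, PDIA3, PDIA4 and EDEM1 rose in both, and ERN1 did not pass in either. Some genes outside the 39 are given as examples, without a tally. STT3A, SSR1, PYCR1, EIF2S1 and DNAJB1 held sites and fell in both lines. SERP1, TXNDC11, SLC7A5 and SARS held none and fell in both, and EIF2AK1 held one and rose in both. EIF2S1 held more than 1 site, and the first is printed.
STT3A, chromosome 11, position 112 of 2281: aaactggatGGCATCAgaattgtct
SSR1, chromosome 6, position 3256 of 8721: tttttgaatGGCATCAttttatagc
EIF2S1, chromosome 14, position 340 of 3076: atttgccagGGGCATCcaaggcaaa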

How the data were processed

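RNA sequencing of total RNA gave 1 gene table per library (8 libraries, 4 groups of 2). The expected counts deposited by the authors are RSEM 1.2.12 estimates per gene on build hg19, with FastQC for read quality, per the submitters' processing notes. The TPM values were deposited in the same tables and, per the file headers, come from the same estimates. Aligner and strand setting were not given in the sources used here. Expected counts were rounded to integers, 94.7 to 94.9% of those above 0 being whole already within 1e-09. Titles gave the groups, and the cell line tag names the same lines, whereas the source label names other line numbers for some libraries.

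The filterByExpr function of edgeR, given the 4 groups, left 14249 of 23686 genes. Libraries were scaled by TMM, and 1 mean per group was fitted over the 8 libraries (4 residual degrees of freedom, common biological coefficient of variation 0.0342). Comparisons used the quasi-likelihood test of edgeR with Benjamini-Hochberg adjustment over all tested genes and were called at an adjusted p under 0.05. The standard error of a log2 change is its size divided by the root of F. SDs are over 2 libraries. FGF21 and ERN2, on the further pathway lists, were too low to test. List medians and counts are descriptions without a test. The members and lists were chosen with earlier results of these data known, and the split of the folding genes was made after their values were seen. Genes named were GPX1, the 39 members, and from each further list up to 4 genes with the smallest p per line.

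Promoters were matched by symbol, and ERO1L by accession, to RefSeq sequences of GRCh38.p14, from which no coordinate was carried over to hg19. Some of the sites and marker genes searched are not reported here. The main fit did not treat libraries as paired by replicate number, and no label states a pairing. The test procedure was tried on simulated counts. Alternatives were DESeq2 size factors, DESeq2, limma-voom, no filter, a stricter filter (5 CPM in 2 libraries), each line fitted alone, the replicate number as a block, a test against a 1.5-fold change, limma on log2(TPM + 1) and leaving out each library in turn. R 4.3.3 was used with DESeq2 1.42.0, edgeR 4.0.16 and limma 3.58.1, and Python 3.11.15 with pandas 2.3.3.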

Additional observations from a re-analysis of the deposited data

Results flagged for a closer look

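The log2 change after GPX1 depletion in MDA-MB-231 minus that in Hs578T passed edgeR's interaction test with Benjamini-Hochberg adjustment for 10 members. It was 1.23 for CTH, 0.504 for HYOU1, 0.399 for WFS1, 0.314 for CRELD2, 0.24 for HSP90B1, 0.212 for PDIA4, 0.176 for HSPA5, 0.159 for CALR, -0.149 for TXNDC5 and -0.44 for ERO1L. CTH rests on the fewest counts, at 3.09 to 10.3 CPM. The call of CALR was lost with the replicate number as a block.

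The further pathway genes named were picked by the smallest p in each line. That choice favours large changes, so a count among them describes no pathway. Of all tested genes 6.32% had a positive and 10.7% a negative difference between the lines. The same difference passed for 15 of the genes named. Among ATF4 targets it was -1.32 for CEBPB, -0.77 for TXNIP and -0.343 for SLC38A2. In ER quality control it was 0.331 for SSR1 and 0.276 for STT3A. It was -0.426 for the eIF2 kinase EIF2AK1, 0.365 for CREB3L1 and -0.205 for NFYA. The heat shock genes HSPA8 and CCT3 had 0.334 and 0.245. In the mitochondrial list it was -0.419 for GRPEL1, -0.365 for TRAP1, -0.247 for HSPA9, -0.227 for LONP1 and -0.158 for YME1L1. No group had enough libraries for a check of single outlying values.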

How the results depend on the processing

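With a test against a 1.5-fold change, 0 members rose and 0 fell in MDA-MB-231, 0 rose and 1 fell in Hs578T, the difference between lines was positive for 0 and negative for 0, and 3 were higher in MDA-MB-231 control. Rises in Hs578T (10) numbered 6 with DESeq2, the stricter filter and limma on log2(TPM + 1), 5 with each line fitted alone, and 6 to 10 with 1 library left out. Positive differences (8) numbered 15 with the stricter filter. Negative differences (2) numbered 1 with DESeq2 size factors, DESeq2, no filter, the stricter filter and limma on log2(TPM + 1), and 1 to 4 with 1 library left out. The ER folding median in Hs578T (-0.19) was -0.21 with DESeq2 size factors and DESeq2, -0.24 with the stricter filter, each line alone and limma on log2(TPM + 1), and -0.24 to -0.18 with 1 library left out. The ATF4 arm median in MDA-MB-231 (-0.37) was -0.33 with DESeq2 size factors and DESeq2, -0.31 with the stricter filter, -0.40 with the line alone, -0.28 with limma on log2(TPM + 1), -0.40 without CBS (chosen after seeing the data), and -0.39 to -0.12 with 1 library left out. The ER folding median in MDA-MB-231 (-0.03) was 0.0042 with DESeq2 size factors and with DESeq2, 0.0195 with the stricter filter, and -0.0282 to 0.0437 with 1 library left out, so its sign depends on the scaling. The cause was not tested. With the replicate block 9 members rose and 12 fell in MDA-MB-231, 10 rose and 18 fell in Hs578T, and 6 differences were positive and 2 negative. Same-numbered libraries showed no shared deviation (correlations of 0.0545 in MDA-MB-231 and -0.0348 in Hs578T). Counting noise can hide a shared deviation, so these values cannot tell whether the numbers pair the libraries. Fits of each line alone give no difference between lines. With any spacing of up to 21 bases the ER stress element stood in the same 6 member promoters and in 253 of all promoters (0.927%). Genes under about 10 CPM, such as CHAC1, CTH and NUPR1 in MDA-MB-231, have the widest errors.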
